A study of Mus musculus with 15 samples.

Results

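The 44 genes of the RNA-seq table whose symbols start with *Slc25a* and a digit encode proteins of the mitochondrial carrier family. They are picked from the 23235 genes of the table by symbol, and the rule uses no measured value. Of the 44, 29 averaged 1 FPKM or more over the 4 groups (FPKM counts sequenced fragments scaled to transcript length and library size) and were compared beside the 10297 genes that passed the same filter, and the other 15 were below it. Family members under other symbols (*Ucp1* to *Ucp3*, *Mtch1*, *Mtch2*, *Mcart1* and *Mcart6*) were not among the 44 and are given at the end of the comparisons.

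Mitochondrial carriers sit in the inner membrane of the mitochondrion and pass metabolites, nucleotides and cofactors between the matrix and the cytosol, mostly by exchange. The ADP/ATP carriers and the phosphate carrier supply ATP synthase with its substrates and release the ATP made. In the brain, the aspartate/glutamate carrier works in the malate-aspartate shuttle, which brings the reducing power of glycolysis into mitochondria, and the glutamate carriers bring glutamate into the matrix.

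The study compared *Snord116del* (+/-) mice, which carry a deletion of the *Snord116* cluster on the paternal chromosome and serve as a model of Prader-Willi syndrome, with wild type (WT) mice. RNA-seq was done on the brain cortex of 9 adult males at Zeitgeber (Zt) +6 h, in the light, and Zt +16 h, in the dark. The groups were WT C57BL/6J at Zt +6 (3 mice), *Snord116del* (+/-), strain B6(Cg)-Snord116tm1.1Uta/J, at Zt +6 (2 mice), WT at Zt +16 (2 mice) and *Snord116del* at Zt +16 (2 mice); the study's methods describe *Snord116del* and WT animals as littermates. ChIRP-seq, which purifies chromatin with oligos against an RNA, was done on adult brain with oligos against *116HG*, the spliced host transcript of *Snord116*, or with nonspecific control (NSC) oligos, and gave 5 peak lists: WT *116HG* replicates 1 and 2, WT NSC, *Snord116del* *116HG* and *Snord116del* NSC. No treatment other than the time of day was given, and the deletion is present in every cell type of the animal, so the cortex values cannot be assigned to a cell type.

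The table holds 1 FPKM value per gene and group, made from all mice of the group. There are therefore no replicates, no standard deviation and no test for any value below, and a difference of group values cannot be set against the spread between mice. A gene is called higher or lower here where FPKM + 1 was 1.5-fold apart or more and the larger value reached 1 FPKM, and differences are given as log2(FPKM + 1). *Snord116* itself is listed at 0 in all 4 groups, so that it does not check the labels; *Ipw*, a transcript of the same paternal unit, was at 21.6 FPKM in WT against 3.40 in *Snord116del* at Zt +6, and 3.17 against 1.82 at Zt +16. The summed FPKM of all genes was 159300 in WT against 160199 in *Snord116del* at Zt +6, and 216422 against 342188 at Zt +16. The median log2 difference of all 10297 genes between *Snord116del* and WT was 0.57 at Zt +6 and 0.35 at Zt +16, so differences of the carriers are also given after the 4 groups were scaled to the same median. The labels of both *Snord116del* mice and of 1 of the 3 WT mice at Zt +6 name an earlier version of the table than those of the other 6 mice, and it is not stated whether these 3 were processed apart. Defining neuronal transcripts were present in every group, with *Snap25* between 417 and 590 FPKM. Markers of striatum, a region outside the cortex, summed to 26.8 FPKM in WT against 75.9 in *Snord116del* at Zt +6, and 25.5 against 48.1 at Zt +16. Fewer cells of a type and less RNA per cell cannot be told apart in these bulk samples.

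The carriers made up a near constant share of the cortical transcripts. Their summed FPKM was 514 in WT against 505 in *Snord116del* at Zt +6, and 661 against 1064 at Zt +16, which is 0.322%, 0.316%, 0.306% and 0.311% of the summed FPKM of all genes. The make-up of that share was less constant. The ADP/ATP carriers *Slc25a4* and *Slc25a5* and the phosphate carrier *Slc25a3* together gave 68.8% of the carrier FPKM in WT at Zt +6, 51.5% in *Snord116del* at Zt +6, 76.9% in WT at Zt +16 and 78.8% in *Snord116del* at Zt +16. The ATP-Mg/phosphate carrier *Slc25a23* took 5.03% of it in WT at Zt +6 and 16.1% in *Snord116del* at Zt +6, against 1.70% and 1.48% at Zt +16. In *Snord116del* at Zt +6, *Slc25a23* thus stood above *Slc25a3*, which exceeded it in the other 3 groups.

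**Figure D1:**
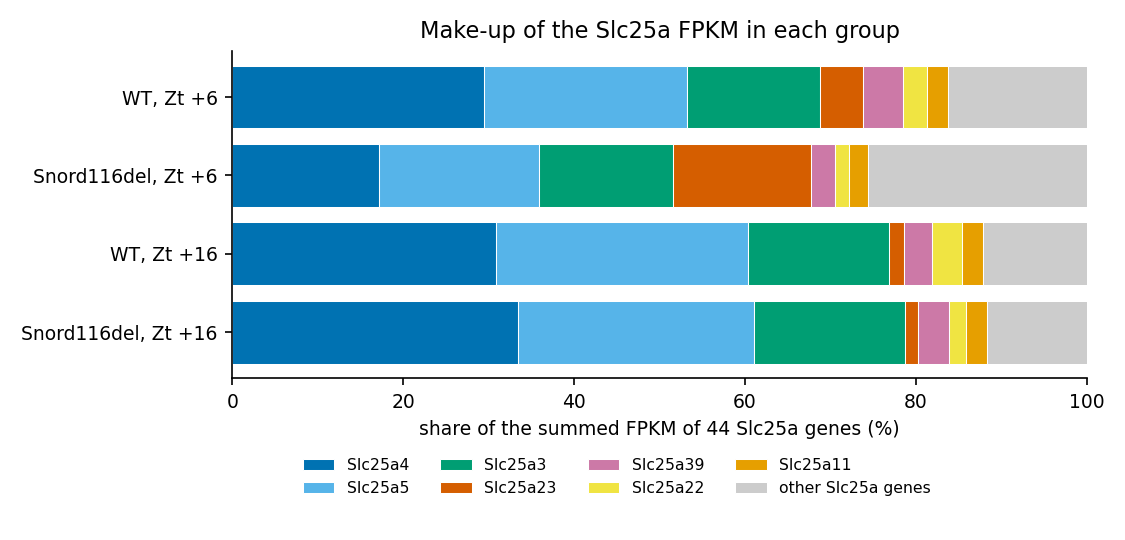
Share of the summed FPKM of the 44 Slc25a genes (x axis, percent) held by 7 named genes and by the other 37 genes together, in each of the 4 cortex groups (1 bar per group, 1 value per gene and group, no replicates). The segment of Slc25a23 is 16.1% wide in Snord116del at Zt +6 and between 1.48% and 5.03% in the other 3 groups.

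On FPKM as deposited, most genes of the table and most carriers were highest in one of the *Snord116del* groups. Of the 29 tested genes, 17 had their highest FPKM in *Snord116del* at Zt +16 and 11 in *Snord116del* at Zt +6, and *Slc25a22*, a glutamate carrier, had it in WT at Zt +16. None was highest in WT at Zt +6. Of all tested genes, 41.1% were highest in *Snord116del* at Zt +16 and 57.7% in *Snord116del* at Zt +6, together 98.8%. These counts moved with the scaling, which was tried on them after the data were seen. With the same median, 15 carriers were highest in *Snord116del* at Zt +16 and 8 in *Snord116del* at Zt +6 (34.6% and 41.3% of all genes), and with the same total 2 and 19 (7.04% and 75.8%). On the deposited scale the lowest value lay in WT at Zt +16 for 13 genes, in *Snord116del* at Zt +6 for 10 and in WT at Zt +6 for 6. The lowest group was not counted over all genes or under another scaling, so these counts have no share to be set against. The ratio of the highest to the lowest group ran from 1.56 for *Slc25a44* to 26.7 for *Slc25a36*, with a median of 2.38 against 2.56 over the 10258 tested genes above 0 in every group. As deposited, no call in any of the 4 comparisons was made for 5 genes (*Slc25a17*, *Slc25a26*, *Slc25a29*, *Slc25a44* and *Slc25a45*). After scaling to the same median *Slc25a44* was called lower at Zt +6 (-0.59), and *Slc25a44* (0.87), *Slc25a17* (0.75) and *Slc25a45* (0.71) were called higher at Zt +16 than at Zt +6 in *Snord116del*. As deposited, 6 genes (*Slc25a4*, *Slc25a5*, *Slc25a18*, *Slc25a22*, *Slc25a23* and *Slc25a39*) were called in 3 of the 4 comparisons. Of all tested genes, 56.9% and 19.2% were called between genotypes at Zt +6 and Zt +16. Between times, 16.0% were called in WT and 64.0% in *Snord116del*. How many of all genes were called in none or in 3 comparisons was not counted, so these carriers cannot be said to stand out.

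**Figure D2:**
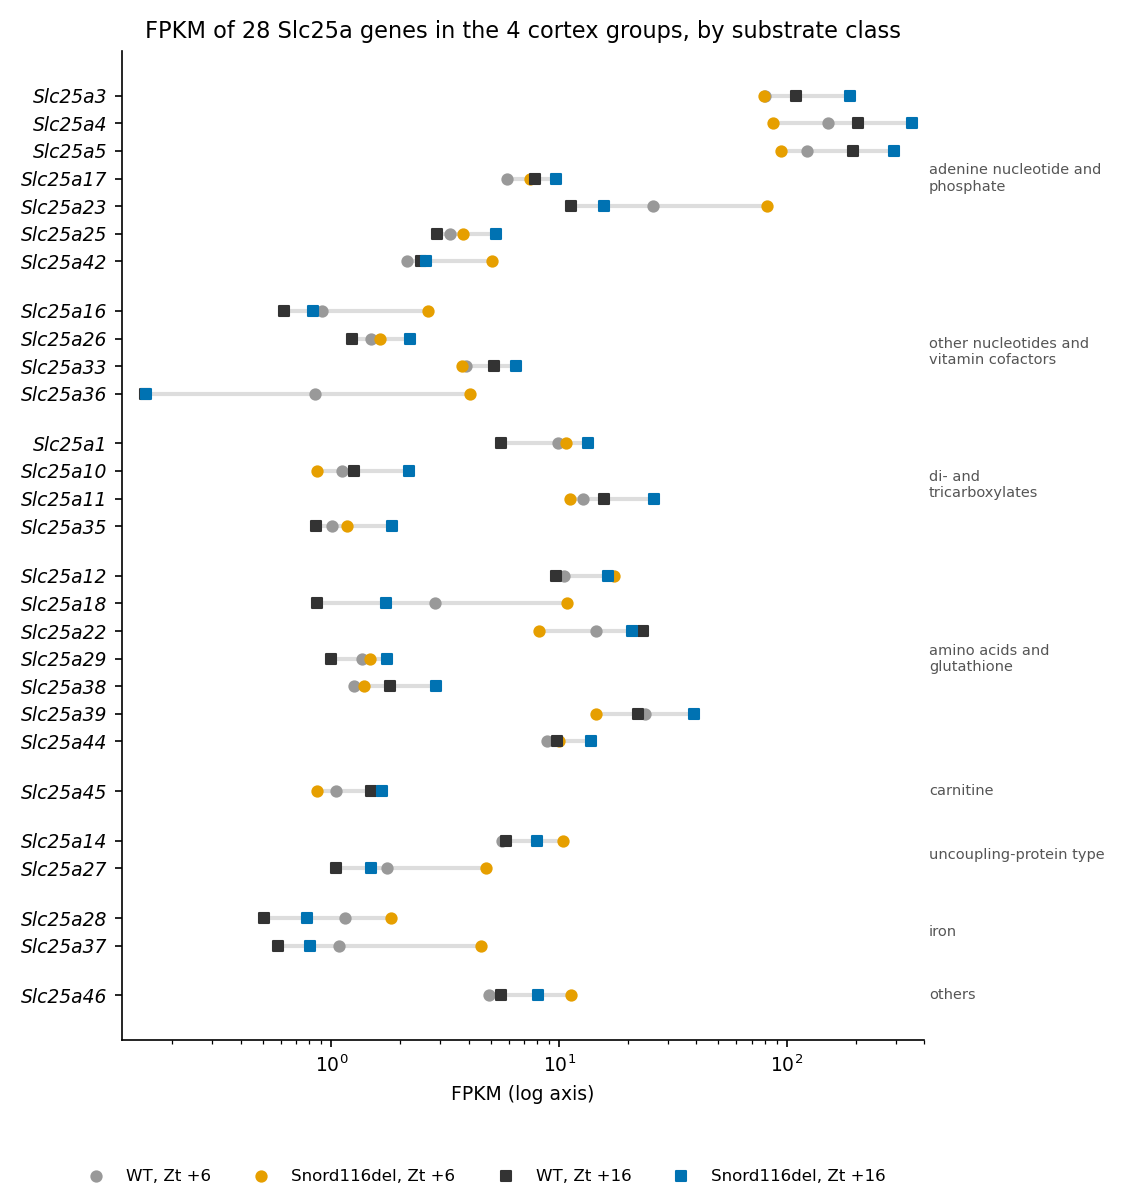
FPKM (x axis, log scale) of 28 of the 29 tested Slc25a genes (rows, grouped by the class of their substrates) in WT and Snord116del cortex at Zt +6 (circles) and Zt +16 (squares); each point is the single value of a group and grey lines join the lowest to the highest. Snord116del at Zt +6 is the highest group for 11 genes, Slc25a23, Slc25a36, Slc25a37 and Slc25a18 among them, and the lowest for 9 of those drawn, Slc25a4 and Slc25a39 among them.

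The promoters of *Slc25a4* and *Slc25a36* are shown because *Slc25a4*, the most abundant carrier in 3 groups, was lower in *Snord116del* at Zt +6 and *Slc25a36*, with the widest range, was higher. Each is the 250 bases before the RefSeq start on the transcribed strand of GRCm38.p6, in lower case, with the CCAAT box, the GC box (GGGCGG) and the E-box (CACGTG, the letters bound by CLOCK and related factors) in capitals on either strand. The *Slc25a4* window is chr8:46211063-46211312 on the minus strand and the *Slc25a36* window is chr9:97111042-97111291 on the minus strand.
Slc25a4: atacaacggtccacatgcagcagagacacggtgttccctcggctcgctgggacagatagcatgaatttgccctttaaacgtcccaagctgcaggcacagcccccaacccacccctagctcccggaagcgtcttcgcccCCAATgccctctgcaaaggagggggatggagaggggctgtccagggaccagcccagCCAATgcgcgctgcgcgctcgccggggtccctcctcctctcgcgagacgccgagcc
Slc25a36: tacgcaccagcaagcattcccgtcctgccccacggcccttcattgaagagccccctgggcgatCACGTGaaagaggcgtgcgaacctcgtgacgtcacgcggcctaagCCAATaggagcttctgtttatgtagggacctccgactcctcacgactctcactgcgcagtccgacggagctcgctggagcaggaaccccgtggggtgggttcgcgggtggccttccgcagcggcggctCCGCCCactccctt
Both stretches were rich in G and C (64.8% in *Slc25a4*, 64.4% in *Slc25a36*), with 18 and 24 CpG dinucleotides. *Slc25a4* held 2 CCAAT boxes, and *Slc25a36* held 1 CCAAT box, 1 GC box and 1 E-box.

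Across the family, RefSeq gave 43 start windows of 300 bases (250 before to 50 after the start) for 34 of the 44 genes. Both strands were searched for each motif, and a motif that overlaps another was counted under both. The GC box stood in 83.7% of the carrier windows against 35.7% of all 32851 windows, CCAAT in 48.8% against 37.4%, and CACGTG in 18.6% against 7.15%. The 8 windows with CACGTG belonged to *Slc25a1*, *Slc25a13*, *Slc25a14*, *Slc25a15*, *Slc25a31*, *Slc25a33* and *Slc25a36*. The core motif of nuclear respiratory factor 1 stood in 4.65% of carrier windows against 4.60% of all, the estrogen-related receptor element (AAGGTCA) in 2.33% against 4.72%, and the D-box (TTATGNAA) in 2.33% against 3.38%. The carrier windows had a median GC content of 59.0% against 52.7%, and the part of base composition in the motif shares was not tested. A motif that was not found says only that its letters are not in the window.

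At Zt +6, the carriers split between *Snord116del* and WT. Of the 29, 10 were called higher in *Snord116del* and 3 lower, where 49.3% of all tested genes were higher and 7.62% lower (56.9% in either direction). The median log2 difference of the carriers was 0.11, against 0.57 over all tested genes. After scaling to the same median, 4 carriers were higher and 10 lower (15.0% and 24.4% of all genes, 39.5% in either direction), with a median of -0.41 against -0.06. At Zt +16, 10 carriers were called higher and 0 lower, against 19.0% and 0.204% of all tested genes (19.2% in either direction). The difference lay above 0 for 28 of the 29 carriers and for 9965 of all 10297 tested genes. With the same median it did so for 20 of the 29 and for 5464 of the 10297. The median of the carriers was 0.46 against 0.35 over all genes as deposited. After scaling to the same median 1 carrier was higher and 1 lower (1.22% and 0.515% of all genes, 1.74% in either direction). The share of carriers called in each direction depended on the scaling at both times, and scaling to the same total gave 10 higher and 3 lower at Zt +6 and 0 higher and 1 lower at Zt +16.

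**Figure D3:**
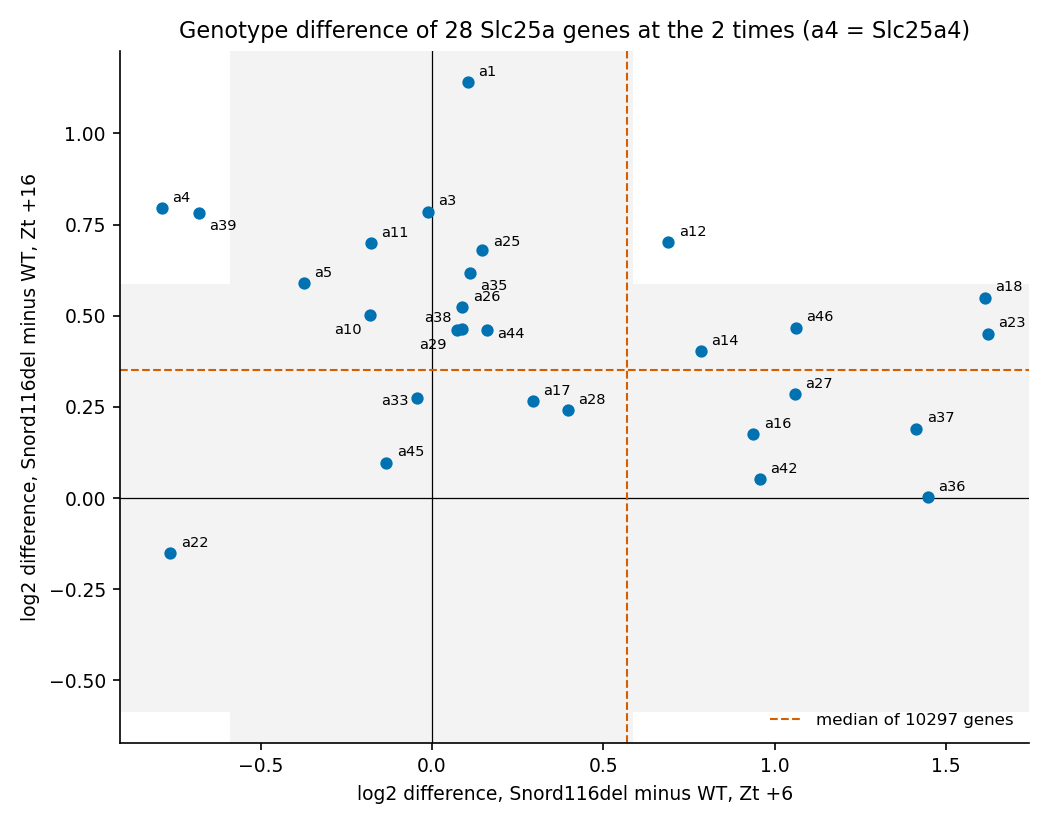
Difference in log2(FPKM + 1) between Snord116del and WT for 28 of the 29 tested Slc25a genes at Zt +6 (x axis) and Zt +16 (y axis), with the median of all 10297 tested genes as dashed lines and differences under 1.5-fold shaded on each axis. Slc25a4 and Slc25a39 lie at upper left (lower at Zt +6, higher at Zt +16), Slc25a12 alone is past 1.5-fold upward on both axes, and 9 genes are past it upward at Zt +6 only.

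Time of day was compared within each genotype with the same groups, so these comparisons share samples with those above and are not independent of them. In WT, 2 carriers were called higher at Zt +16 than at Zt +6 and 3 lower, against 5.71% and 10.3% of all tested genes (16.0% in either direction), with a median log2 difference of 0.05 against -0.04. In *Snord116del*, 10 were higher and 8 lower, against 25.0% and 39.1% of all tested genes (64.0% in either direction), with a median of 0.33 against -0.24. After scaling to the same median the counts were 2 higher and 4 lower in WT (10.8% and 9.48% of all genes, 20.2% in either direction) and 16 and 6 in *Snord116del* (35.0% and 26.5%, 61.5% in either direction). Scaling to the same total gave 0 and 7 in WT and 1 and 13 in *Snord116del*, so the split between higher and lower carriers depended on the scaling in both genotypes. The carriers called in either direction as deposited were 17.2% of the 29 in WT and 62.1% in *Snord116del*, near the shares of all genes. Markers of other tissues differed between the times in both genotypes: those of the choroid plexus summed to 204 FPKM at Zt +6 against 26.7 at Zt +16 in WT and to 187 against 31.9 in *Snord116del*, and those of erythrocytes to 280 against 1082 and to 327 against 1160. The erythrocyte markers did not move as 1. *Hba-a2* and *Hbb-b2* were higher at Zt +16 in both genotypes. *Hbb-b1* was lower, at 36.8 against 18.9 FPKM in WT and 89.4 against 26.0 in *Snord116del*. *Alas2* was higher at Zt +16 in WT and lower in *Snord116del*, and *Hba-a1* is listed at 0 throughout. The part of these tissues in the time differences was not tested.

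The adenine nucleotide and phosphate carriers held the most abundant transcripts of the family. *Slc25a4*, the ADP/ATP carrier of heart, muscle and brain (chr8:47292151-47296638 in mm9, minus strand), was at 151 FPKM in WT against 87.0 in *Snord116del* at Zt +6. At Zt +16 it was at 204 in WT and 355 in *Snord116del*. *Slc25a4* was thus called lower at Zt +6 (log2 difference -0.79) and higher at Zt +16 (0.80), and *Snord116del* held both its lowest and its highest value. After scaling to the same median the values were -1.61 and 0.33, so that the call at Zt +6 remained and that at Zt +16 did not. *Slc25a5*, the more widely expressed ADP/ATP carrier, was at 122 and 94.2 FPKM in WT and *Snord116del* at Zt +6, with 195 against 294 at Zt +16. It followed the order of *Slc25a4*, with a log2 difference of -0.37 at Zt +6 that was not called and 0.59 at Zt +16 that was; under scaling to the same total the latter was -0.07. Scaled to the same median, *Slc25a5* was called lower at Zt +6 (-1.20) and not called at Zt +16 (0.12). *Slc25a3*, which brings phosphate into the matrix, was at 80.0 and 79.3 FPKM at Zt +6 and at 109 and 189 at Zt +16, with differences of -0.01 and 0.79, which became -0.83 (called lower) and 0.32 (not called) after scaling to the same median. The ratio of *Slc25a4* to *Slc25a3*, which no scaling of a group changes, was 1.89 in WT at Zt +6, 1.10 in *Snord116del* at Zt +6, 1.87 in WT at Zt +16 and 1.88 in *Snord116del* at Zt +16.

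*Slc25a23* was the carrier that went furthest the other way at Zt +6. It encodes a calcium-regulated carrier that exchanges ATP-Mg for phosphate and sets the size of the matrix nucleotide pool. It was at 25.8 FPKM in WT against 81.6 in *Snord116del* at Zt +6, and 11.3 against 15.8 at Zt +16. The log2 difference of 1.62 at Zt +6 was the largest of the family, and it was 0.81 after scaling to the same median; at Zt +16 it was 0.45 and not called. The ratio of *Slc25a23* to *Slc25a3* was 0.323, 1.03, 0.103 and 0.0836 in WT Zt +6, *Snord116del* Zt +6, WT Zt +16 and *Snord116del* Zt +16. Its relative *Slc25a25*, also calcium-regulated, was at 3.32 and 3.78 FPKM at Zt +6 and 2.91 and 5.26 at Zt +16, and was called higher at Zt +16 only (0.68, and 0.32 after scaling). *Slc25a42*, the coenzyme A carrier, was at 2.14 and 5.09 FPKM at Zt +6 and 2.48 and 2.61 at Zt +16, and was called higher at Zt +6 (0.96, and 0.32 after scaling). *Slc25a17*, which serves the peroxisome rather than the mitochondrion, kept between 5.90 and 9.65 FPKM and was called in no comparison as deposited. The other members of this class, *Slc25a24*, *Slc25a31* (the ADP/ATP carrier of germ cells) and *Slc25a41*, had at most 0.341, 0.128 and 0.279 FPKM.

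Among the amino acid carriers, the pair that imports glutamate diverged. *Slc25a22*, one of the glutamate carriers, was at 14.5 FPKM in WT against 8.12 in *Snord116del* at Zt +6, and 23.3 against 20.9 at Zt +16. *Slc25a18*, the form known from astrocytes, was at 2.85 and 10.8 FPKM at Zt +6 and at 0.866 and 1.73 at Zt +16. At Zt +6 *Slc25a22* was therefore called lower (-0.76, and -1.51 after scaling) and *Slc25a18* higher (1.61, and 0.91 after scaling). At Zt +16 *Slc25a22* was not called as deposited (-0.15) but was called lower after scaling to the same median (-0.60). The ratio of *Slc25a22* to *Slc25a18* was 5.09 in WT at Zt +6, 0.754 in *Snord116del* at Zt +6, 26.9 in WT at Zt +16 and 12.1 in *Snord116del* at Zt +16. The sum of 6 astrocyte markers had the order of *Slc25a18* over the groups, as had 5 of them (*Gfap*, *Aqp4*, *Slc1a3*, *Slc1a2* and *Gja1*) but not *Aldh1l1*. They were all present and summed to 92.5 FPKM in WT against 287 in *Snord116del* at Zt +6 and to 46.3 and 66.9 at Zt +16. Neuronal markers summed to 689 and 947 at Zt +6 and to 564 and 771 at Zt +16, which is not the order of *Slc25a22*. The order of *Slc25a18* over the 4 groups was not particular to it. Other carriers of different classes had it too: *Slc25a16*, *Slc25a23*, *Slc25a27*, *Slc25a28*, *Slc25a36* and *Slc25a37*. So did 3 of 6 markers of endothelium (*Cldn5*, *Pecam1* and *Flt1*). The order was also that of 2 of 6 neuronal markers, 2 of 6 of choroid plexus and 1 of 6 of microglia. It was that of 1 of 6 of oligodendrocytes, 1 of 5 of erythrocytes and 0 of 6 of striatum. Of all tested genes, 57.7% were highest in *Snord116del* at Zt +6 as deposited, and the share with the full order was not counted. At Zt +6 the endothelial markers summed to 38.8 FPKM in WT against 74.1 in *Snord116del*, and those of microglia to 30.1 against 57.5. The part of any cell type in these values was not tested.

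*Slc25a12* encodes the aspartate/glutamate carrier of neurons. It was at 10.5 and 17.5 FPKM in WT and *Snord116del* at Zt +6, with 9.67 against 16.3 at Zt +16, and was the one carrier called higher in *Snord116del* at both times (0.69 and 0.70). Neither call held after scaling to the same median (-0.08 and 0.27). *Slc25a13*, the form of liver, had at most 0.354 FPKM, and *Slc25a12* exceeded it between 49.3-fold and 64.5-fold in every group. Of the 6 enzymes of the malate-aspartate and glycerol phosphate shuttles (*Mdh1*, *Mdh2*, *Got1*, *Got2*, *Gpd1*, *Gpd2*), 1 was called higher at Zt +6 (*Gpd2*, 0.99) and 2 at Zt +16 (*Mdh1*, 0.73, and *Got2*, 0.66), with none lower. Of all tested genes, 49.3% were called higher at Zt +6 and 19.0% at Zt +16. After scaling to the same median, 0 of these enzymes were higher and 1 lower at Zt +6 (*Got1*, -1.08), and 0 were called at Zt +16. On that scale 15.0% of all tested genes were higher and 24.4% lower at Zt +6, and 1.74% were called at Zt +16.

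*Slc25a39*, which imports glutathione, was the other carrier called in opposite directions. It was at 23.8 FPKM in WT against 14.5 in *Snord116del* at Zt +6, and 22.3 against 39.0 at Zt +16, with log2 differences of -0.68 and 0.78. After scaling to the same median these were -1.46 and 0.33, and the call at Zt +16 did not hold. Its relative *Slc25a40* had 0.447 and 1.59 FPKM at Zt +6 and 0.307 and 0.480 at Zt +16, so the ratio of *Slc25a39* to *Slc25a40* was 53.2 in WT at Zt +6, 9.10 in *Snord116del* at Zt +6, 72.4 in WT at Zt +16 and 81.3 in *Snord116del* at Zt +16. Glycine import for heme synthesis is the role of *Slc25a38*, which had 1.26 and 1.397 FPKM at Zt +6 and 1.80 and 2.86 at Zt +16. *Slc25a44*, the carrier of branched-chain amino acids, was the steadiest carrier, at 8.86, 10.0, 9.76 and 13.8 FPKM in WT Zt +6, *Snord116del* Zt +6, WT Zt +16 and *Snord116del* Zt +16. *Slc25a29*, which carries basic amino acids, stayed between 0.999 and 1.75 FPKM. As deposited, both were called in no comparison between genotypes or times. In the class of amino acids and glutathione as a whole, 7 of 13 genes were tested, of which 2 were higher and 2 lower at Zt +6 and 2 higher and 0 lower at Zt +16. Of all tested genes, 49.3% were higher and 7.62% lower at Zt +6, and 19.0% and 0.204% at Zt +16. After scaling to the same median, 1 of the 7 was higher and 3 lower at Zt +6, and 0 higher and 1 lower at Zt +16. The shares of all tested genes were then 15.0% and 24.4% at Zt +6, and 1.22% and 0.515% at Zt +16.

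Of the 4 tested di- and tricarboxylate carriers, none was called between the genotypes at Zt +6 and 3 were called higher in *Snord116del* at Zt +16, where 19.0% of all genes were. With the groups at the same median all 4 lay below 0 at Zt +6, and *Slc25a1* (-0.65) and *Slc25a11* (-0.94) were called lower. On that scale 5490 of all 10297 tested genes lay below 0 at Zt +6, and 24.4% were called lower. *Slc25a1*, the citrate carrier that exports citrate for fatty acid synthesis, was at 9.91 and 10.7 FPKM at Zt +6 and at 5.53 and 13.4 at Zt +16. Its difference at Zt +16 (1.14) was the largest of the family there, and it was the one carrier still called higher after scaling to the same median (0.73), while scaling to the same total left 0.54, under the 1.5-fold line. Within WT, *Slc25a1* was lower at Zt +16 than at Zt +6 (-0.74). *Slc25a11*, the oxoglutarate carrier that partners *Slc25a12* in the malate-aspartate shuttle, was at 12.7 and 11.1 FPKM at Zt +6 and 15.7 and 26.0 at Zt +16 and was called higher at Zt +16 (0.70, and 0.26 after scaling). *Slc25a35*, a carrier of uncertain substrate, was at 1.01 and 1.17 FPKM at Zt +6 and 0.859 and 1.85 at Zt +16 (0.62 at Zt +16, and 0.38 after scaling). *Slc25a10*, the dicarboxylate carrier, lay between 0.866 and 2.19 FPKM and was called in neither genotype comparison.

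Carriers of other nucleotides and of cofactors held the widest range of the family. *Slc25a36*, a pyrimidine nucleotide carrier, was at 0.851 FPKM in WT against 4.05 in *Snord116del* at Zt +6, and 0.151 against 0.153 at Zt +16. Its log2 difference was 1.45 at Zt +6 (0.89 after scaling) and 0.00 at Zt +16, and all 3 groups other than *Snord116del* at Zt +6 lay under 1 FPKM. *Slc25a33*, which carries the same class of nucleotides, was at 3.91 and 3.76 FPKM at Zt +6 and 5.19 and 6.48 at Zt +16, and was called in neither genotype comparison as deposited. After scaling to the same median it was called lower at Zt +6 (-0.69). *Slc25a16*, a carrier linked to coenzyme A, was at 0.907 and 2.65 FPKM at Zt +6 and 0.621 and 0.832 at Zt +16, and was called higher at Zt +6 (0.94, and 0.42 after scaling). *Slc25a26*, which brings S-adenosylmethionine into the matrix, lay between 1.23 and 2.20 FPKM and was called in no comparison as deposited.

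Both tested uncoupling-type carriers and 1 of the 2 iron carriers were called higher in *Snord116del* at Zt +6, as were 49.3% of all tested genes. *Slc25a14* and *Slc25a27*, brain-expressed relatives of the uncoupling proteins, were at 5.60 and 1.76 FPKM in WT and 10.4 and 4.76 in *Snord116del* at Zt +6. Both were called higher there (0.79 and 1.06), but neither after scaling to the same median (0.05 and 0.44), and neither at Zt +16, when *Slc25a14* was at 5.83 and 8.03 FPKM and *Slc25a27* at 1.05 and 1.499. *Slc25a37* (mitoferrin 1, the iron carrier of erythroid cells) was at 1.08 and 4.55 FPKM at Zt +6 and 0.585 and 0.809 at Zt +16, with a difference of 1.41 at Zt +6 that was 0.83 after scaling. *Slc25a28* (mitoferrin 2, its counterpart in other tissues) was at 1.15 and 1.83 FPKM at Zt +6 and 0.508 and 0.783 at Zt +16 and was not called between genotypes. The ratio of *Slc25a37* to *Slc25a28* was 2.49 in *Snord116del* at Zt +6 and between 0.942 and 1.15 in the other 3 groups. Summed erythrocyte markers followed another order than *Slc25a37*, at 280 FPKM in WT against 327 in *Snord116del* at Zt +6, and 1082 against 1160 at Zt +16. Of these 5 markers, *Hba-a1* is listed at 0 in every group, and *Hbb-b1* had the order of *Slc25a37*, at 36.8 and 89.4 FPKM at Zt +6 and 18.9 and 26.0 at Zt +16. Another marker, *Alas2*, the erythroid enzyme of heme synthesis, was at 0.451 and 3.02 FPKM at Zt +6 and 0.972 and 1.12 at Zt +16. The order of *Slc25a37* was thus that of 1 of 5 erythrocyte markers, and it was also that of 5 of 6 markers of astrocytes and 3 of 6 of endothelium. The part of red blood cells or of any other cell type in the *Slc25a37* values was not tested.

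*Slc25a46*, a relative that sits in the outer membrane and bears on mitochondrial shape, was at 4.90 and 11.3 FPKM at Zt +6 and 5.54 and 8.04 at Zt +16, and was called higher at Zt +6 (1.06, and 0.33 after scaling). *Slc25a45*, a relative of the carnitine carriers, stayed between 0.868 and 1.67 FPKM and was called in no comparison as deposited. The 15 genes under the filter reached at most 1.59 FPKM (*Slc25a40*), 12 of them lay under 1 FPKM in every group, and none was listed at 0. They were *Slc25a2*, *Slc25a13*, *Slc25a15*, *Slc25a20* (the carnitine/acylcarnitine carrier, with at most 0.828 FPKM), *Slc25a21*, *Slc25a24*, *Slc25a30*, *Slc25a31*, *Slc25a32*, *Slc25a34*, *Slc25a40*, *Slc25a41*, *Slc25a43*, *Slc25a47* and *Slc25a48*.

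As deposited, time of day was called for 5 carriers in WT and 18 in *Snord116del* (17.2% and 62.1% of the 29, against 16.0% and 64.0% of all tested genes). In WT, *Slc25a5* (log2 difference 0.67) and *Slc25a22* (0.65) were called higher at Zt +16 than at Zt +6, and *Slc25a1* (-0.74), *Slc25a18* (-1.04) and *Slc25a23* (-1.13) lower. Scaled to the same total, *Slc25a5* and *Slc25a22* (0.23 each) were not called in WT. In *Snord116del*, the abundant carriers *Slc25a4* (2.02), *Slc25a5* (1.63), *Slc25a39* (1.37), *Slc25a22* (1.26), *Slc25a3* (1.24) and *Slc25a11* (1.15) were higher at Zt +16, as were *Slc25a10* (0.77), *Slc25a38* (0.69) and *Slc25a33* (0.65). Scaled to the same total, only *Slc25a4* (0.93) of these kept its call. The lower genes in *Snord116del* were *Slc25a23* (-2.30), *Slc25a36* (-2.13), *Slc25a18* (-2.11), *Slc25a37* (-1.62), *Slc25a27* (-1.20), *Slc25a16* (-0.996), *Slc25a42* (-0.76) and *Slc25a28* (-0.67). The calls of *Slc25a42* and *Slc25a28* did not hold after scaling to the same median (-0.36 each). *Slc25a18* and *Slc25a23* were called lower at Zt +16 in both genotypes under every alternative setting tried in which they were tested. The difference between genotypes in these time effects is the same quantity as the difference between times in the genotype effect, and with 1 value per group it was not tested.

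In its median difference, the family stood between all genes and the genes of oxidative phosphorylation at both times. Among 81 tested genes of the respiratory chain and ATP synthase, 6 were higher and 47 lower in *Snord116del* at Zt +6, with a median log2 difference of -0.71, and 61 were higher and 0 lower at Zt +16, with a median of 0.69. Of all tested genes, 49.3% were higher and 7.62% lower at Zt +6, and 19.0% and 0.204% at Zt +16. After scaling to the same median, 0 respiratory chain genes were higher and 69 lower at Zt +6, and 11 and 0 at Zt +16. Of all tested genes on that scale, 15.0% were higher and 24.4% lower at Zt +6, and 1.22% and 0.515% at Zt +16. Among 74 tested mitochondrial ribosomal protein genes, 1 was higher and 29 lower at Zt +6 (median -0.41) and 33 higher and 0 lower at Zt +16 (median 0.55). After the same scaling, 0 of them were higher and 54 lower at Zt +6, and 0 were called at Zt +16. As deposited, *Slc25a4* (-0.79) and *Slc25a22* (-0.76) lay below the median of the respiratory chain genes at Zt +6 and *Slc25a39* (-0.68) just above it. Of the 7 family members under other symbols, 3 were tested at Zt +6: *Mtch1*, a relative in the outer membrane, was lower (-0.89) and *Mcart1* higher (0.70), and *Mtch2* was not called. After scaling to the same median, *Mtch1* (-1.70) and *Mtch2* (-0.76) were called lower at Zt +6 and *Mcart1* (-0.007) was not called. *Mtch1* was higher at Zt +16 (1.13, and 0.67 after scaling). Of 12 genes for other mitochondrial transport found in the table of a list of 15, 6 were higher and 1 lower at Zt +6 (*Brp44*, a subunit of the pyruvate carrier, -0.77) and 3 higher and 0 lower at Zt +16. After scaling to the same median, 0 of the 12 were higher and 4 lower at Zt +6, and 0 were called at Zt +16.

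Transcript length went with the difference at Zt +6. Over 10165 tested genes with an annotated transcript, Spearman's rho between transcript length and the log2 difference at Zt +6 was 0.63, and the median difference ran from -0.40 in the shortest of 10 length bins (median 864 bases) to 1.251 in the longest (median 7922 bases). Over the 29 carriers rho was 0.34, given as a description over genes that are not independent replicates. The 12 carriers longer than the all-gene median of 3085 bases held 7 called higher and 1 called lower, where 72.3% of all genes of that length were higher and 0.886% lower, with a median of 0.81 against 0.91. The 17 shorter ones held 3 higher and 2 lower (26.4% and 14.1% of all genes of that length), with a median of 0.07 against 0.18. With the trend over length removed, 5 carriers were called higher (12.6% of all genes) and 5 lower (13.4%) at Zt +6, and 1 higher and 0 lower at Zt +16. *Slc25a18*, with a transcript of 1367 bases, differed by 1.61 at Zt +6, and *Slc25a3*, with one of 4039 bases, by -0.01. The part of transcript length in the differences between these groups was not tested.

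**Figure D4:**
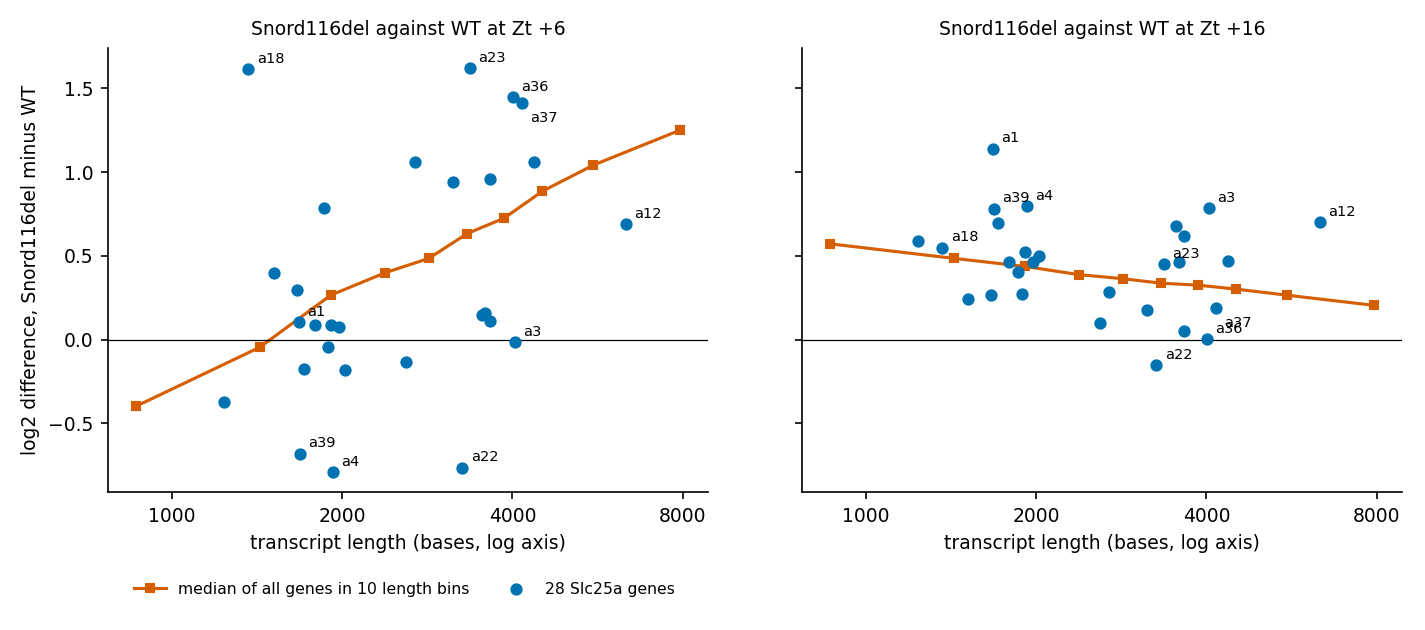
Difference in log2(FPKM + 1) between Snord116del and WT (y axis) against transcript length in bases (x axis, log scale) at Zt +6 (left) and Zt +16 (right); blue points are 28 of the 29 tested Slc25a genes and orange squares the medians of all genes in 10 bins of length. At Zt +6 the bin medians run from -0.40 to 1.251 and at Zt +16 from 0.57 to 0.20, with Slc25a18 above and Slc25a4, Slc25a22 and Slc25a3 below them at Zt +6.

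ChIRP-seq peaks of *116HG* were found at few carriers in both WT replicates. A peak of WT *116HG* replicate 1 that lay within 10 kb of a replicate 2 peak was found within 2 kb of 6 of the 44 genes (13.6%), where 10.9% of the 21853 annotated genes of the table had one. The 6 genes were *Slc25a12*, *Slc25a17*, *Slc25a21*, *Slc25a23*, *Slc25a41* and *Slc25a46*. Of them *Slc25a12*, *Slc25a23* and *Slc25a46* were called higher in *Snord116del* at Zt +6, *Slc25a17* was not called, and *Slc25a21* and *Slc25a41* were under the filter. Of all tested genes, 49.3% were called higher at Zt +6. The calls of *Slc25a12* and *Slc25a46* did not hold after scaling to the same median (-0.08 and 0.33) or with the trend over length removed. Counting every peak of replicate 1, 32 carriers had one (72.7%, against 59.3% of all genes), 27 of the 29 tested genes and 5 of the 15 under the filter. Counting every peak of replicate 2, 7 carriers had one (15.9%, against 13.9% of all genes), and 5 had one that lay within 10 kb of a replicate 1 peak (11.4%, against 8.02%). Of the controls, WT NSC had 0 of its 3648 peaks at carriers, which allows up to 0.0822% of its peaks to lie there, by counting error only. A peak of that list lay at 0 of the 44 carriers and at 2.30% of all genes. *Snord116del* *116HG* (2.26% of all genes) and *Snord116del* NSC (7.88%) had 1 each, both in an intron of *Slc25a24*.

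**Figure D5:**
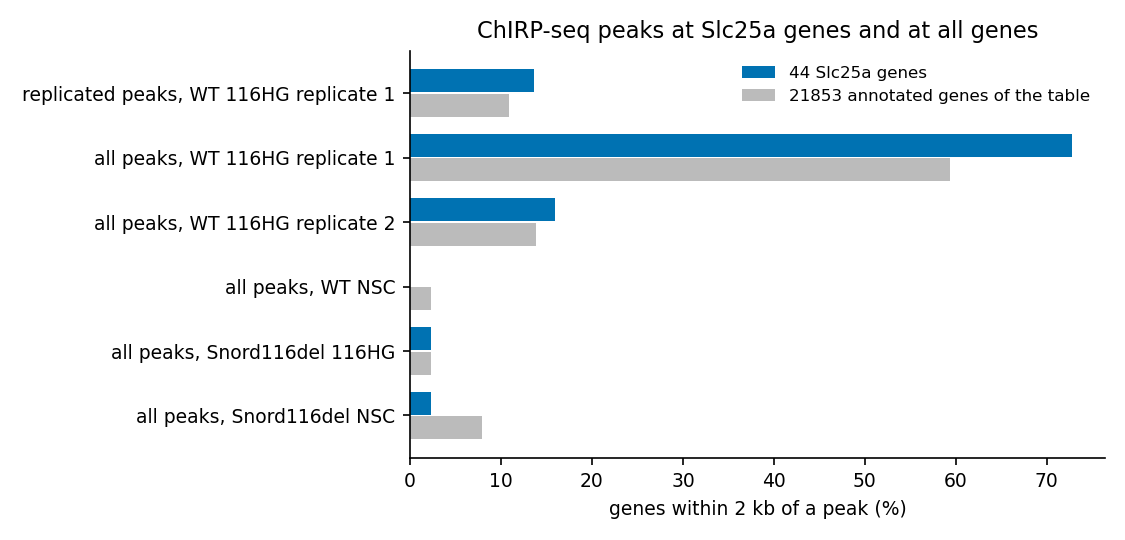
Percent of genes within 2 kb of a ChIRP-seq peak (x axis, bars from 0) for the 44 Slc25a genes (blue) and the 21853 annotated genes (grey), in each peak list; each list is 1 library. With replicated peaks the carriers stand at 13.6% against 10.9%, with all peaks of WT 116HG replicate 1 at 72.7% against 59.3%, and in the WT NSC list at 0.

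Where the peaks lay differed between the replicates. Of the 148 replicate 1 peaks at carriers, 108 (73.0%) had their middle in an exon, whereas of the 9 replicate 2 peaks at carriers 0 lay in an exon, 8 in an intron and 1 outside genes. *Slc25a12* had the most replicate 1 peaks, 16, followed by *Slc25a23* with 13 and *Slc25a3* with 10. The highest fold over input at a carrier was 400, against a median of 61.6 at carriers and 55.3 over the whole replicate 1 list. At *Slc25a17* the replicated peak covered the start of the gene (chr15:81191125-81191244, 61.6-fold over input). At *Slc25a12* the replicated peak (chr2:71204581-71204647) had its middle 1192 bases after the start.

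Peaks of both WT replicates overlapped directly at 3 places near carriers, and their sequences are shown because these are the sites where the pair of libraries meets. The stretch present in both peaks is in capitals and the rest of the wider peak in lower case, on the plus strand of mm9. The first is chr12:58085960-58086039 and the second chr12:58171737-58171828, both in introns of *Slc25a21*, the oxodicarboxylate carrier (chr12:57813621-58298459, minus strand). The third is chr17:57181607-57181722, between *Slc25a41* (chr17:57172196-57181077, minus strand) and the end of *Slc25a23*, with its middle at -587 bases from the start of *Slc25a41*.
Slc25a21 first intronic site: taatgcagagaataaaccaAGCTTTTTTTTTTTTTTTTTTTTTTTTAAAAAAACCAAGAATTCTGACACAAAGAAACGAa
Slc25a21 second intronic site: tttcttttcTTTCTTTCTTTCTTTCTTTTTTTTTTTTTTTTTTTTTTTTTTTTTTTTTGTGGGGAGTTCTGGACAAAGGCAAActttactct
Slc25a23 and Slc25a41 site: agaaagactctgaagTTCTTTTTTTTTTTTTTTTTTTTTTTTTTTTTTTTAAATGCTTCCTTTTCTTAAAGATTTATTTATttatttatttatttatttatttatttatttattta
All 3 sites were low in G and C (22.5%, 23.9% and 11.2%) and held an unbroken run of T, of 24, 33 and 32 bases. The middle 32 bases of the second site occur 450 times in the genome, and those of the other two sites once each. Such runs marked the overlap of the lists at large: 85.7% of the 1869 replicate 1 peaks that overlapped a replicate 2 peak held a run of A or T of at least 20 bases, against 9.70% of all 77619 replicate 1 peaks on the reference sequences and 32.6% of all 10664 replicate 2 peaks. The share was 4.50% in WT NSC, 0.236% in *Snord116del* *116HG* and 0.471% in *Snord116del* NSC. At carriers, 6 of the 148 replicate 1 peaks (4.05%) and 5 of the 9 replicate 2 peaks held such a run. The part of these runs in the replicated peaks was not tested.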

How the data were processed

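RNA-seq was done on the cortex of 9 mice and ChIRP-seq on adult brain, and the members and gene lists were chosen with earlier results of these data known. The authors aligned RNA-seq reads with TopHat2 2.0.5 and made 1 FPKM value per gene and group with Cuffdiff 2.0.2, from all mice of a group, and deposited no value per mouse. The authors aligned ChIRP-seq reads to mm9 with Bowtie2 2.0.0 and called peaks per library with MACS 1.4.2, and the deposited fold of a peak is its enrichment over the input; the replicate 2 list holds positions only. Base calling used CASAVA 1.8.0. Versions are from the submitters' processing notes. The deposited columns of fold change, q-value and significance hold the authors' own comparisons and were not used. Depth per mouse cannot be read from FPKM values, and the read numbers in the study's methods were not used here.

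Genes averaging 1 FPKM or more were compared on log2(FPKM + 1), with a pseudocount of 1 and no test. A gene had a peak if 1 lay within 2 kb, and a peak was replicated if the other WT library had 1 within 10 kb. The tested carriers are named with their values, except 1 that is counted in all totals but not reported here by itself or drawn; other carriers are given by name and range. Sequences are from mm9 and, for promoters, RefSeq GRCm38.p6. Alternatives were other pseudocounts, filters, scalings, folds, peak distances and removal of trends over transcript length or GC content. Python 3.11.15, pandas 2.3.3, numpy 2.4.6, scipy 1.17.1, statsmodels 0.14.6 and matplotlib 3.10.9 were used.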

Additional observations from a re-analysis of the deposited data

Results flagged for a closer look

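*Slc25a4* and *Slc25a39* were lower in *Snord116del* at Zt +6 and higher at Zt +16. The log2 difference at Zt +6 less that at Zt +16 was -1.58 for *Slc25a4* and -1.46 for *Slc25a39*. With the trend over transcript length removed these values were -1.40 and -1.13, and after scaling to the same median -1.94 and -1.79. The median of this quantity over the 29 tested carriers was -0.32. The calls at Zt +6 held in 9 of 10 alternative settings, and those at Zt +16 in 4 of 10, being lost for both genes with the same median, the same total, quantile normalization, a 2-fold rule, and the trend over length or GC content removed. With 1 value per group, the difference between the times was not tested.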

How the results depend on the processing

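No paired analysis was possible because the table has 1 value per group and no column per mouse, and leaving out each mouse in turn could not be done for the same reason. Of the carriers called at Zt +6 (13), a mean of at least 5 FPKM left 7 and a 2-fold rule 6. At Zt +16 (10, against 19.2% of all genes), scaling to the same median gave 2 (1.74%), to the same total 1 and quantile normalization 2. A looser fold rule gave 19 there, a fold of 2 gave 1, and removing the length trend gave 1 or the GC trend 2. Between times in WT (5), a pseudocount of 0.1 gave 8, quantile normalization 3, the looser fold rule 13 and a fold of 2 2. In *Snord116del* (18) a mean of at least 5 FPKM gave 8 of 14 tested. The share of all genes called can move with these settings as well. Where it is not given here, a changed count cannot be read as a change of the carriers against all genes. The median difference between the times of the genotype difference (-0.32) was -0.11 with no filter, -0.70 with a mean of at least 5 FPKM, -0.56 with the same median and 0.12 with the same total. Signs turned for *Slc25a12* at Zt +6 (same median -0.084, length trend removed -0.40, GC trend removed -0.046), *Slc25a5* at Zt +16 (same total -0.070, quantile normalization -0.0577), and, between times in *Snord116del*, *Slc25a33* (same total -0.26) and *Slc25a38* (-0.038). Carriers with a replicated peak (6, against 10.9% of all genes) were 3 where replicates had to overlap or lie within 2 kb and 14 within 50 kb. The share of all genes at those distances is not given here. Carriers with a peak were 7 with WT *116HG* replicate 2 alone and 32 with replicate 1 alone (13.9% and 59.3% of all genes). The cause of these changes was not tested. *Slc25a18*, *Slc25a23* and *Slc25a37* kept their call at Zt +6 under every setting in which they were tested, and *Slc25a1* at Zt +16 under 9 of 10.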
